A study of Homo sapiens with 8 samples.

Results

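RNA of 9 hyaluronan genes was followed in IMR90 human fetal lung fibroblasts grown without or with inflachromene (ICM). ICM is a small molecule that binds the chromatin proteins HMGB1 and HMGB2. The 9 genes are the synthases HAS1, HAS2 and HAS3, the breakdown genes HYAL1, HYAL2 and CEMIP, the matrix binding partners VCAN and TNFAIP6, and the receptor gene HMMR. They were picked by symbol for their role, with earlier results of these data known, and all 9 are among the 28265 genes counted. The assay was factory RNA-Seq, in which RNA attached to isolated transcription factories, large complexes of active polymerases, is sequenced, and 4 conditions had 2 libraries each. The labels name poly(A) selection and the counts used here fall on exons, so they can hold spliced transcripts as well as unfinished ones. Control libraries came from proliferating IMR90 that the labels call young, without saying whether they received the drug's solvent. No day is given for them, so time on ICM and time in culture cannot be told apart. The ICM libraries came from the same line after 3 or 6 days of ICM at 10 µM. The fourth condition is labelled MetaICM, and neither the labels nor the study's methods say what was done to these cells, so its values describe only the libraries of that name. All groups are of 1 line with no genetic change, and nothing used here says whether the 2 libraries of a condition came from separate cultures, so every p-value measures the spread between these libraries, which may be technical.

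Hyaluronan is a very long, unbranched sugar polymer of the extracellular matrix. It is spun out through the plasma membrane by the HAS synthases from the activated sugars UDP-glucuronic acid and UDP-N-acetylglucosamine. It is cut by the HYAL enzymes and, in skin and other fibroblasts, mainly through CEMIP. In the matrix it is held by proteoglycans such as versican, the product of VCAN, and it is cross-linked with the help of TSG-6, the product of TNFAIP6. Cells sense it through CD44 and through RHAMM, the product of HMMR, which also sits on the mitotic spindle.

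The libraries held between 12095123 and 23166405 counted read pairs (median 18642269). The 10 fibroblast markers, such as collagen genes, summed to 9724 to 21550 CPM (counts scaled to the library total) in every library, from 21493 to 21550 in control, 11738 to 13002 after 3 days, 9724 to 10216 after 6 days and 17566 to 18233 in MetaICM. Markers of other cells stayed low, at 0.0920 to 1.29 CPM summed over 5 epithelial genes, 2.04 to 6.66 CPM over 4 endothelial genes, 2.80 to 4.03 CPM over 5 leukocyte genes and 0.532 to 1.26 CPM over 3 mesothelial genes, with the T cell gene CD3E at 0 in all 8 libraries. The fibroblast markers therefore moved with ICM themselves, and their part in the results was not tested. Control libraries were the furthest apart of any condition, with a Pearson correlation of log2 CPM of 0.982 against 0.988 to 0.992 in the others. In bulk RNA, fewer cells of a type and less RNA per cell cannot be told apart.

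A gene was called where edgeR's quasi-likelihood test, adjusted over all tested genes by the Benjamini-Hochberg method, gave a value under 0.05 and the absolute log2 fold change (log2FC) was over 0.6. HAS1 was too sparse for all comparisons but one, leaving 8 of the 9 genes tested. After 3 days of ICM, 4 of these 8 were lower (HAS2, CEMIP, VCAN and HMMR) and 1 was higher (TNFAIP6), where 13.2% of all 15692 tested genes were lower and 8.85% higher. After 6 days, 5 of 8 were lower (the same 4 and HAS3) and TNFAIP6 was again the 1 gene that was higher, beside 17.2% lower and 13.3% higher among 15950 genes. The median log2FC of the tested hyaluronan genes was -0.67 at 3 days and -0.72 at 6 days, with 0.01 and 0.00 over all genes. Both of these comparisons and the one of MetaICM use the same 2 control libraries, and those of 6 against 3 days and of MetaICM against 6 days use the ICM libraries again.

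From 3 to 6 days, 2 of 9 genes rose (CEMIP and TNFAIP6) and VCAN fell, where 3.53% of 15845 genes rose and 4.54% fell. In MetaICM, 3 of 8 were lower than in control (HAS2, VCAN and TNFAIP6) and HYAL2 was higher, beside 8.99% lower and 7.41% higher of 15904 genes. Against 6 days of ICM, MetaICM had 5 of 8 genes higher (HAS2, HYAL2, CEMIP, VCAN and HMMR) and TNFAIP6 lower, beside 15.7% higher and 12.0% lower of 16036 genes. Taken over both directions, the share of called hyaluronan genes lay above that of all genes in each comparison, whereas the 1 gene higher at each ICM time was close to the background share. As the genes were chosen with earlier results of these data known, that is a description only.

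**Figure D1:**
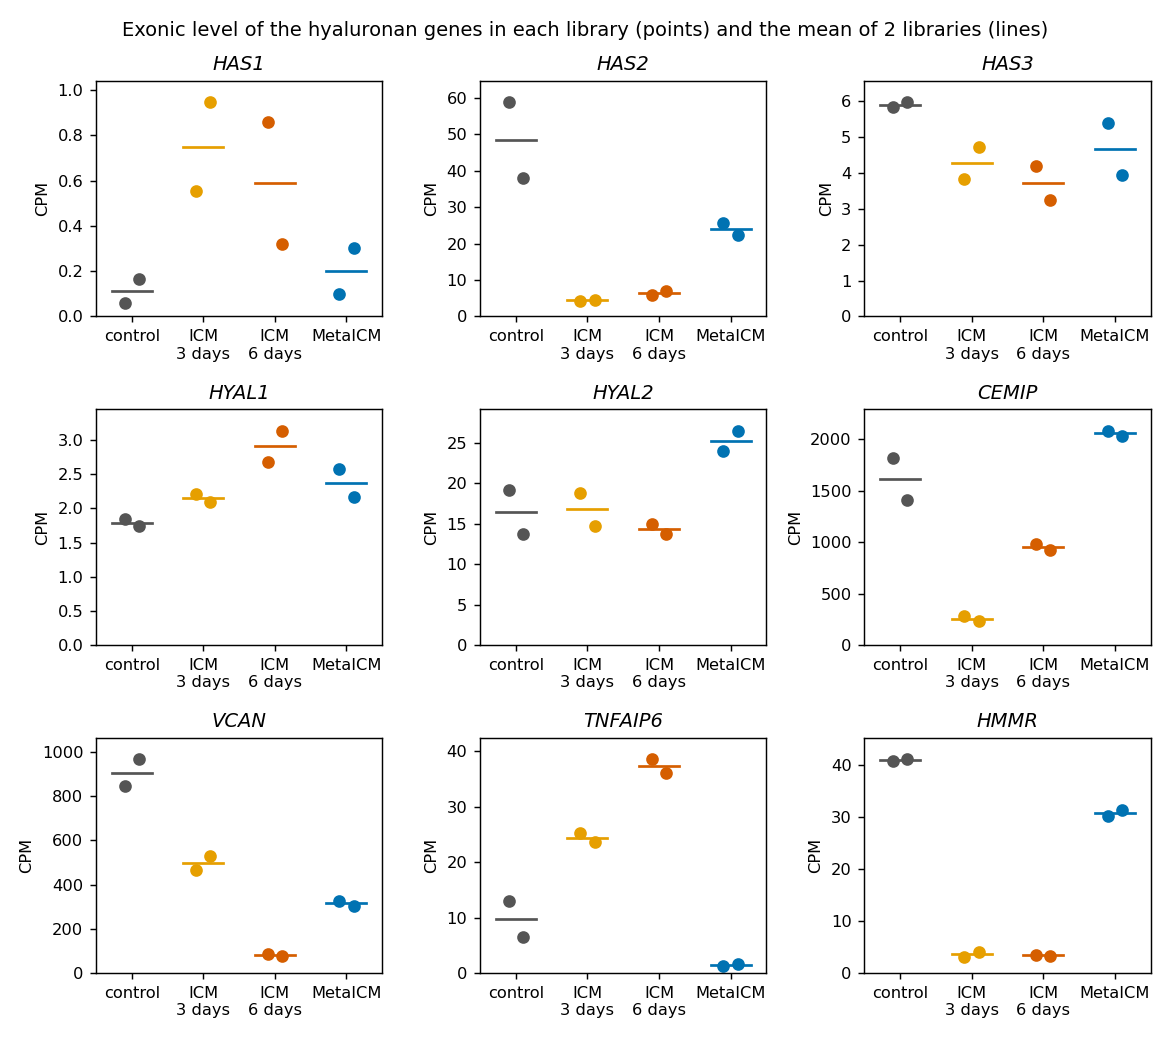
CPM (vertical axis, from 0) of each hyaluronan gene in control, ICM 3 days, ICM 6 days and MetaICM, with 1 point per library and a line at the mean of 2 libraries. HAS2 and HMMR sit at 3.17 to 7.07 CPM in all 4 ICM libraries, CEMIP is lowest at 3 days, VCAN at 6 days, and TNFAIP6 peaks at 6 days and is lowest in MetaICM.

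Among the synthases HAS2 fell steeply under ICM, HAS3 moved little and HAS1 stayed close to 0. HAS2 (chr8:122624356-122653680 in hg19, minus strand), which makes most hyaluronan of fibroblasts, was at 58.7 and 37.9 CPM in the control libraries. It was at 4.28 and 4.59 CPM after 3 days, at 5.80 and 7.07 CPM after 6 days, and at 25.8 and 22.2 CPM in MetaICM. The 4 ICM libraries lay far under both controls and the MetaICM libraries lay between, without overlap, although the controls themselves stood apart. The mean level fell to 9.17% of control at 3 days and stood at 13.3% at 6 days and 49.7% in MetaICM. The log2FC of HAS2 was -3.46 ± 0.22 (SE, n = 2 against 2) at 3 days (adjusted p = 2.97e-07, edgeR). It was -2.92 ± 0.22 at 6 days (adjusted p = 3.29e-06) and -1.02 ± 0.19 in MetaICM (adjusted p = 0.0041, both edgeR). The step from 3 to 6 days, 0.54 with a 95% interval of 0.11 to 0.97, did not pass (adjusted p = 0.0731). MetaICM stood 3.72-fold above 6 days of ICM (log2FC 1.90, interval 1.62 to 2.17).

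HAS2 shares exon sequence with an antisense gene, HAS2-AS1, on the opposite strand. Because read pairs were counted without regard to strand, and pairs touching more than 1 gene were dropped, the 251 of 4240 exon bases that the genes share add to neither count, but elsewhere sense and antisense reads cannot be told apart. HAS2-AS1 was scarce, at 1.43 and 0.994 CPM in control, 1.01 and 0.607 at 3 days, 0.430 and 0.425 at 6 days, and 0.941 and 1.43 in MetaICM. Its 3-day value of -0.56 (interval -1.53 to 0.41) did not pass, while it was lower at 6 days (log2FC -1.52 ± 0.45, adjusted p = 0.0200, edgeR) and higher in MetaICM than at 6 days (log2FC 1.47). DESeq2 made neither call (adjusted p = 0.177 and 0.116). Per kilobase (kb) of exon, HAS2 exceeded HAS2-AS1 21.4-fold in control, 3.18-fold at 3 days, 8.12-fold at 6 days and 11.6-fold in MetaICM.

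HAS3 (chr16:69139556-69152619), the synthase held to make shorter chains, moved little. Its levels were 5.83 and 5.97 CPM in control, 3.82 and 4.72 at 3 days, 4.19 and 3.24 at 6 days, and 5.40 and 3.95 in MetaICM. All 6 other libraries lay under both controls, by small margins against the spread within ICM and MetaICM. The log2FC was -0.48 at 3 days (interval -1.01 to 0.05) and -0.67 ± 0.23 at 6 days (adjusted p = 0.0377, edgeR). The 6-day call was lost by DESeq2 (adjusted p = 0.165), when no filter on low counts was used (0.0614), and without control replicate 1 (0.0505), ICM 6-day replicate 1 (0.0747) or ICM 6-day replicate 2 (log2FC -0.49, adjusted p = 0.308, edgeR). In MetaICM the value was -0.34 (interval -0.84 to 0.15). Of the 4811 exon bases of HAS3, 362 are shared with its neighbours CHTF8 and DERPC.

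HAS1 (chr19:52216365-52227244) was close to silent, and only its raw counts carry information. Control libraries held 1 and 2 read pairs, 3-day libraries 12 and 14, 6-day libraries 16 and 6, and MetaICM libraries 2 and 7. Every ICM library held more than either control, the lowest being 6 against 2. Scaled to library totals adjusted by TMM, the summed count was 6.85 times that of control at 3 days (26 against 3, exact 95% binomial interval 2.10 to 35.3). At 6 days it was 5.66 times (22 against 3, interval 1.70 to 29.5). For MetaICM it was 2.01 times (9 against 3, interval 0.500 to 11.5). These intervals cover counting error only, not the spread between libraries, and HAS1 did not pass the filter for the model in those comparisons. Under alternatives that admit it, edgeR called HAS1 higher at 3 days with no filter on low counts (adjusted p = 0.0160) and with all 8 libraries in 1 fit (0.0213). DESeq2 did not call HAS1 at 3 days, with a log2FC of 2.78 ± 1.35 and no adjusted p. At 6 days it was called in the joint fit (adjusted p = 0.0350, edgeR) but not without the filter (0.0969) or by DESeq2 (0.199). Without control replicate 1 the log2FC of HAS1 was 2.08 at 3 days and 1.77 at 6 days. From 3 to 6 days the fitted log2FC was -0.29 (interval -1.39 to 0.80).

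Levels of different genes were compared only per kb of exon within a library. On that scale HAS2 was 9.32 ± 2.98 (SD, n = 2) times HAS3 in control, 1.19 ± 0.12 times at 3 days, 2.02 ± 0.64 times at 6 days and 5.90 ± 0.69 times in MetaICM. At 3 days HAS2 (1.05 CPM per kb) and HAS3 (0.888 CPM per kb) were thus nearly level. In control the order per kb was CEMIP (219 CPM per kb), VCAN (72.9), HMMR (13.6), HAS2 (11.4), TNFAIP6 (6.90), HYAL2 (6.82), HAS3 (1.23), HYAL1 (0.613) and HAS1 (0.0534), where the libraries of HMMR and HAS2 overlapped, as did those of TNFAIP6 and HYAL2. HAS1 stayed the lowest of the 9 genes in every condition, reaching 0.355 CPM per kb at 3 days.

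**Figure D2:**
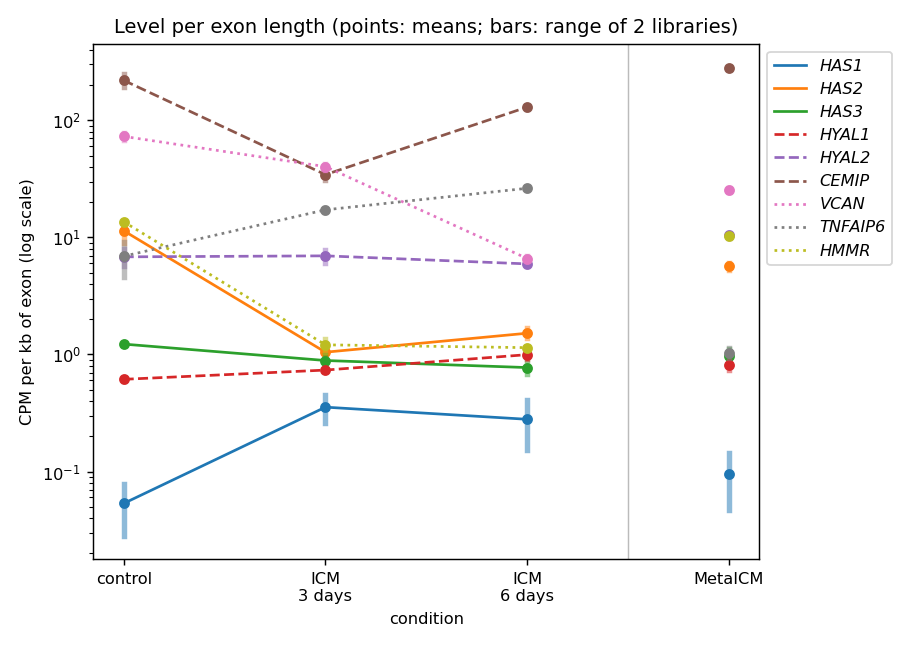
Level per kb of exon (vertical log axis, CPM per kb) of the 9 genes in the 4 conditions, with points at the means, bars over the range of 2 libraries and lines joining control, 3 and 6 days of ICM. Solid lines are synthases, dashed lines breakdown genes and dotted lines binding partners and HMMR. CEMIP crosses under VCAN at 3 days (34.4 against 40.2) and VCAN drops to 6.60 at 6 days.

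Of the 3 breakdown genes, CEMIP alone was called under ICM. CEMIP (chr15:81071711-81244112), which binds hyaluronan and is needed for its degradation outside lysosomes in fibroblasts, was the highest of the 9 genes per kb in control, at 219 CPM per kb. It was at 1819 and 1409 CPM in control, 277 and 228 CPM at 3 days, 984 and 924 CPM at 6 days, and 2083 and 2034 CPM in MetaICM. The 3-day libraries were the lowest, the 6-day libraries lay between them and control, and MetaICM lay above both controls. Mean CEMIP was 15.7% of control at 3 days (log2FC -2.68 ± 0.17, adjusted p = 2.13e-07, edgeR) and 59.1% at 6 days (-0.76 ± 0.14, adjusted p = 0.0015, edgeR). Without control replicate 1 the 6-day value was -0.57, under the 0.6 needed. CEMIP was 3.76-fold higher at 6 than at 3 days (log2FC 1.91 ± 0.10, adjusted p = 1.68e-10, edgeR). MetaICM exceeded 6 days of ICM 2.16-fold, and its value against control, 0.35 with an interval of 0.01 to 0.68, did not pass (adjusted p = 0.113).

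HYAL2 (chr3:50355221-50360281), a membrane-anchored hyaluronidase that makes the initial cuts, showed no such dip. It stood at 19.2 and 13.8 CPM in control, 18.9 and 14.7 at 3 days, 14.9 and 13.7 at 6 days, and 24.0 and 26.5 in MetaICM. Control and ICM libraries overlapped, and MetaICM lay above all of them. The log2FC was 0.02 at 3 days (interval -0.41 to 0.46) and -0.21 at 6 days (-0.61 to 0.19). In MetaICM it was 0.60 ± 0.17 against control (adjusted p = 0.0239, edgeR), just past the 0.6 needed, and 0.82 ± 0.11 against 6 days of ICM (adjusted p = 1.36e-06, edgeR). The call against control was lost without control replicate 2 (0.40), MetaICM replicate 1 (adjusted p = 0.0610) or MetaICM replicate 2 (0.55, adjusted p = 0.189, edgeR).

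HYAL1 (chr3:50337320-50349812), the lysosomal enzyme that digests the fragments further, was low. Its values were 1.84 and 1.74 CPM in control, 2.21 and 2.09 at 3 days, 2.69 and 3.14 at 6 days, and 2.58 and 2.17 in MetaICM. Both control libraries were the lowest of the 8 and both 6-day libraries the highest. The largest difference from control, 0.69 at 6 days (interval 0.06 to 1.32, adjusted p = 0.0750, edgeR), missed the threshold.

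The balance between CEMIP and the other surface enzymes shifted most at 3 days. Per kb, CEMIP was 32.4 ± 1.73 times HYAL2 in control, 4.96 ± 0.19 times at 3 days, 21.9 ± 0.35 times at 6 days and 26.8 ± 2.34 times in MetaICM (SD, n = 2). CEMIP2, its membrane-bound relative, was not called in any of the 5 comparisons (log2FC 0.32 at 3 days and 0.16 at 6 days). CEMIP was 7.06 times CEMIP2 per kb in control, 0.890 times at 3 days, 3.74 times at 6 days and 12.0 times in MetaICM, so that at 3 days the related genes were about level.

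**Figure D3:**
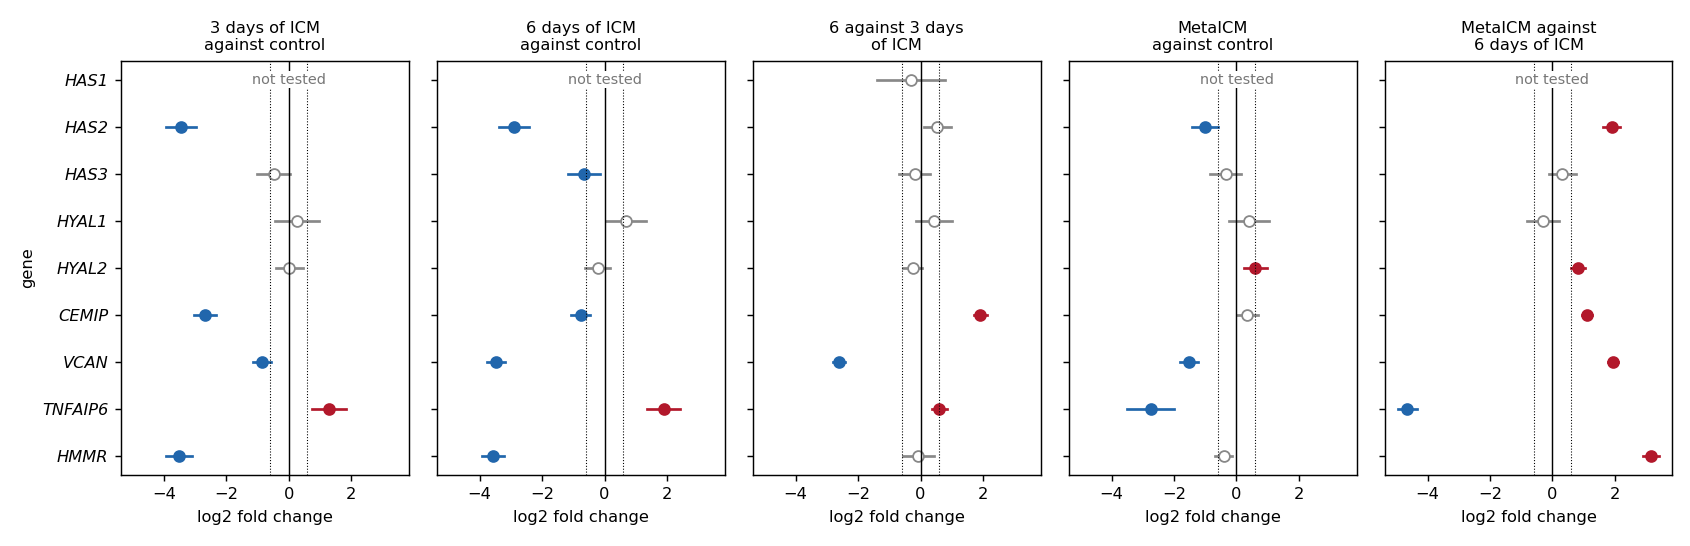
log2 fold change (horizontal axis) with 95% intervals of the 9 genes in the 5 comparisons. Filled red points are called higher, filled blue points called lower, open grey points not called, and dotted lines mark 0.6 and -0.6. HAS2 and HMMR are lower at both ICM times and not called between them, whereas VCAN (-2.61) and CEMIP (1.91) differ between 6 and 3 days.

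Under ICM the matrix partners of hyaluronan moved in opposite directions, and in MetaICM both were lower than in control. VCAN (chr5:82767493-82878122), the large proteoglycan that binds hyaluronan through its N-terminal domain, was at 845 and 965 CPM in control. It was at 468 and 531 CPM at 3 days, 86.3 and 77.5 CPM at 6 days, and 328 and 306 CPM in MetaICM. The 4 conditions did not overlap, in the order control, 3 days, MetaICM, 6 days. The drop was modest at 3 days, to 55.2% of control (log2FC -0.86 ± 0.13, adjusted p = 0.000494, edgeR). It was deep at 6 days, to 9.05% (log2FC -3.47 ± 0.13, adjusted p = 5.07e-08, edgeR). VCAN was 6.11-fold lower at 6 than at 3 days (log2FC -2.61 ± 0.10, adjusted p = 3.50e-12, edgeR). MetaICM stood 2.86-fold under control (log2FC -1.52 ± 0.13, adjusted p = 7.18e-05, edgeR) and 3.87-fold above 6 days of ICM.

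TNFAIP6 (chr2:152214106-152236560) encodes TSG-6, an inflammation-induced protein that moves heavy chains of inter-alpha-inhibitor onto hyaluronan and so compacts it. It was at 13.1 and 6.55 CPM in control, 25.3 and 23.6 at 3 days, 38.6 and 36.2 at 6 days, and 1.34 and 1.61 in MetaICM. The control libraries stood apart from each other, yet all ICM libraries lay above them and both MetaICM libraries below. TNFAIP6 rose with a log2FC of 1.29 ± 0.25 at 3 days (adjusted p = 0.0021) and 1.89 ± 0.24 at 6 days (adjusted p = 0.000147, both edgeR). In MetaICM it fell by 2.75 on the log2 scale against control (SE 0.34, adjusted p = 0.000577, edgeR) and was 25.1-fold lower than at 6 days. Without control replicate 1, these 3 values against control were 1.90, 2.50 and -2.14. Over all alternatives tried, they ran from 0.88 to 1.90, from 1.51 to 2.50 and from -3.14 to -2.14. The step from 3 to 6 days, 0.60 ± 0.11 (adjusted p = 0.000713, edgeR), passed the 0.6 needed only narrowly. It was 0.58 when scaled to library totals, 0.55 without ICM 3-day replicate 2 and 0.57 without ICM 6-day replicate 1.

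The ratio of both partners spans all conditions. Per kb and within a library, VCAN was 12.1 ± 6.72 times TNFAIP6 in control, 2.35 ± 0.32 times at 3 days, 0.251 ± 0.0075 times at 6 days and 24.9 ± 4.42 times in MetaICM (SD, n = 2). At 6 days TNFAIP6 was thus above VCAN per kb, at 26.3 against 6.60 CPM per kb. TNFAIP6 ranked just behind CEMIP then, while in MetaICM (1.04 CPM per kb) its range over libraries met that of HAS3 (0.972 CPM per kb).

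The receptor gene HMMR (chr5:162887638-162918947) fell at both ICM times. RHAMM, its product, binds hyaluronan at the cell surface and organises the spindle in mitosis. HMMR was at 40.9 and 41.2 CPM in control, 3.17 and 4.12 at 3 days, 3.49 and 3.40 at 6 days, and 30.3 and 31.4 in MetaICM. Its level was 8.88% of control at 3 days (log2FC -3.51 ± 0.19, adjusted p = 5.73e-08) and 8.40% at 6 days (-3.57 ± 0.16, adjusted p = 1.10e-07, both edgeR). From 3 to 6 days it differed by -0.07 (interval -0.58 to 0.44). MetaICM was 0.41 lower than control on the log2 scale (interval -0.67 to -0.15), too small to be called, and 8.94-fold above 6 days of ICM (adjusted p = 1.60e-14, edgeR). Of 3016 exon bases, 305 are shared with HMMR-AS1, again counted without strand.

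Set beside 14 genes of mitosis, HMMR lay within their range. All 14 were called lower at 3 days, beside 13.2% of all genes. Their log2FC ran from -4.30 to -2.38 with a median of -3.49, and 6 of them fell further than HMMR. All 14 were lower at 6 days, beside 17.2% of all genes. Their values ran from -5.09 (CENPF, a kinetochore protein) and -4.85 (AURKB, the Aurora B kinase) up to -2.21, with a median of -3.81. TPX2, a spindle protein that works with HMMR, gave -3.48 and -3.49. In MetaICM 7 of 14 were lower than control (median -0.62), beside 8.99% of all genes. Among these 7 was TPX2 at -0.72, and 12 of 14 had lower values than HMMR. Against 6 days of ICM all 14 were higher in MetaICM (median 3.17, HMMR 3.16), beside 15.7% of all genes.

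**Figure D4:**
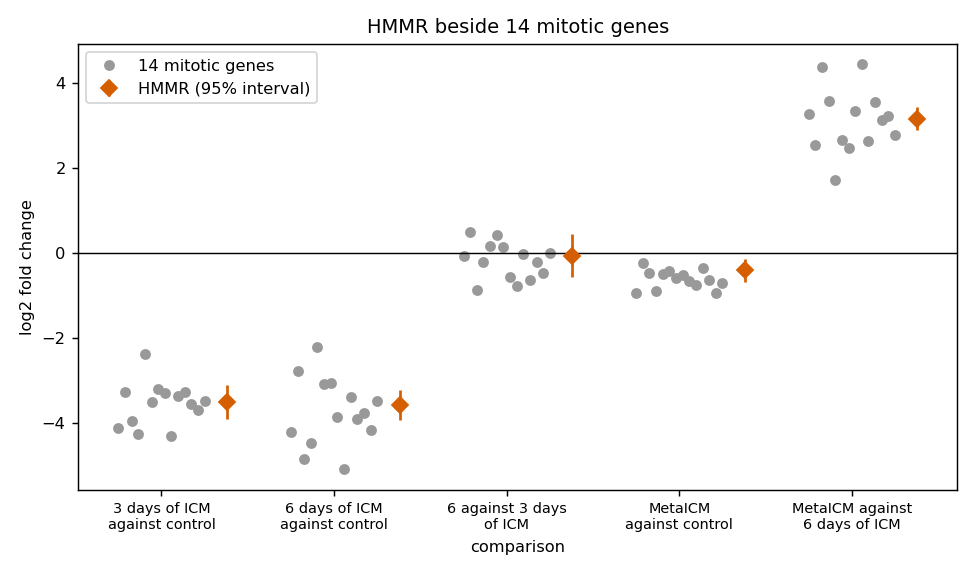
log2 fold change (vertical axis) of HMMR (diamonds, with 95% intervals) and of 14 mitotic genes (grey points) in the 5 comparisons. HMMR sits inside the spread of the mitotic genes in each, near their median at 3 days (-3.51 against -3.49).

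Mitotic genes commonly carry CCAAT boxes and a CHR element near their start, so the promoters of 3 genes with unlike courses are shown, namely HMMR, which fell at both times, CEMIP, which fell and partly returned, and TNFAIP6, which rose. The 250 bases before the RefSeq start are given on the plus strand, the genes' own strand, in build GRCh38.p14. Capitals mark matches on either strand to TTTGAA (the CHR), to CCAAT, to the TATA box letters TATAAA or to TGANTCA (AP-1). The windows are chr5:163460382-163460631 for HMMR, chr15:80779120-80779369 for CEMIP and chr2:151357342-151357591 for TNFAIP6.
HMMR: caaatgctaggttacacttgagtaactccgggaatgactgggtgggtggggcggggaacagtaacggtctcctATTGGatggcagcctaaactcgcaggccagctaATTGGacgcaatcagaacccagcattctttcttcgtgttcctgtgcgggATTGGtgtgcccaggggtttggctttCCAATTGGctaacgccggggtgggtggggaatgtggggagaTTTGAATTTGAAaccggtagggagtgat
CEMIP: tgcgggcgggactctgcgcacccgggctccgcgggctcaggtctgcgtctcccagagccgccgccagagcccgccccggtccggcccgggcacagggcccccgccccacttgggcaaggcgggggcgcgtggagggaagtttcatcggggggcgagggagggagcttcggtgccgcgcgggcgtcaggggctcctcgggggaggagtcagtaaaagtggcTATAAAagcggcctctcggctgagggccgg
TNFAIP6: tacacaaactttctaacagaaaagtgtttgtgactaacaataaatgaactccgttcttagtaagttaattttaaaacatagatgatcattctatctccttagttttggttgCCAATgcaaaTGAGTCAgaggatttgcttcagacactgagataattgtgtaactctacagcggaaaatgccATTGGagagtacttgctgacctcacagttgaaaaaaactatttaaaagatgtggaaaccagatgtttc

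In windows from 250 bases before to 50 after the start, HMMR held 2 TTTGAA matches side by side, 28 and 22 bases before the start, and 5 CCAAT matches, 2 of which overlap each other. Among all 35116 RefSeq promoters, 15.2% held TTTGAA at least once and 2.27% held it 2 times or more. CCAAT was held at least once by 34.6% and 2 times or more by 10.8%. Of the 14 mitotic genes 12 had a promoter in the table, with TTTGAA in 8 and CCAAT in all 12, of which 7 held it 2 times or more. CEMIP held 1 TATAAA match 30 bases before its start (11.5% of all promoters hold one). TNFAIP6 held 2 CCAAT matches and 1 TGANTCA match (7.71% of all), 129 bases before its start. VCAN and HAS1 each held 1 TTTGAA match, HAS3, HYAL1 and HYAL2 held none of these 4 motifs, and HAS2 was not in the table. A match describes the letters only.

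Some genes that supply the sugar precursors rose under ICM. Of 7 genes for the hyaluronan precursors, UGDH rose at 3 days and UAP1 fell, UGDH, PGM3 and GFPT1 rose at 6 days, and GFPT2 was lower in MetaICM, where 8.85% and 13.3% of all genes were higher at 3 and 6 days, 13.2% lower at 3 days and 8.99% lower in MetaICM. UGDH, which makes UDP-glucuronic acid, was at 105 ± 6.18 CPM in control and 165 ± 9.59 at 3 days, 167 ± 14.5 at 6 days and 74.4 ± 0.0103 in MetaICM (SD, n = 2). Its log2FC was 0.64 at 3 days and 0.67 at 6 days (adjusted p = 0.00226 and 0.00107, edgeR). GFPT1, the entry enzyme of the hexosamine pathway, reached 2.21-fold of control at 6 days (log2FC 1.15 ± 0.11, adjusted p = 1.64e-05, edgeR) and was 2.04-fold lower in MetaICM than at 6 days. The paralogue GFPT2 had a log2FC of -0.58 at 6 days, not called, and of -0.74 in MetaICM (adjusted p = 0.00476, edgeR).

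**Figure D5:**
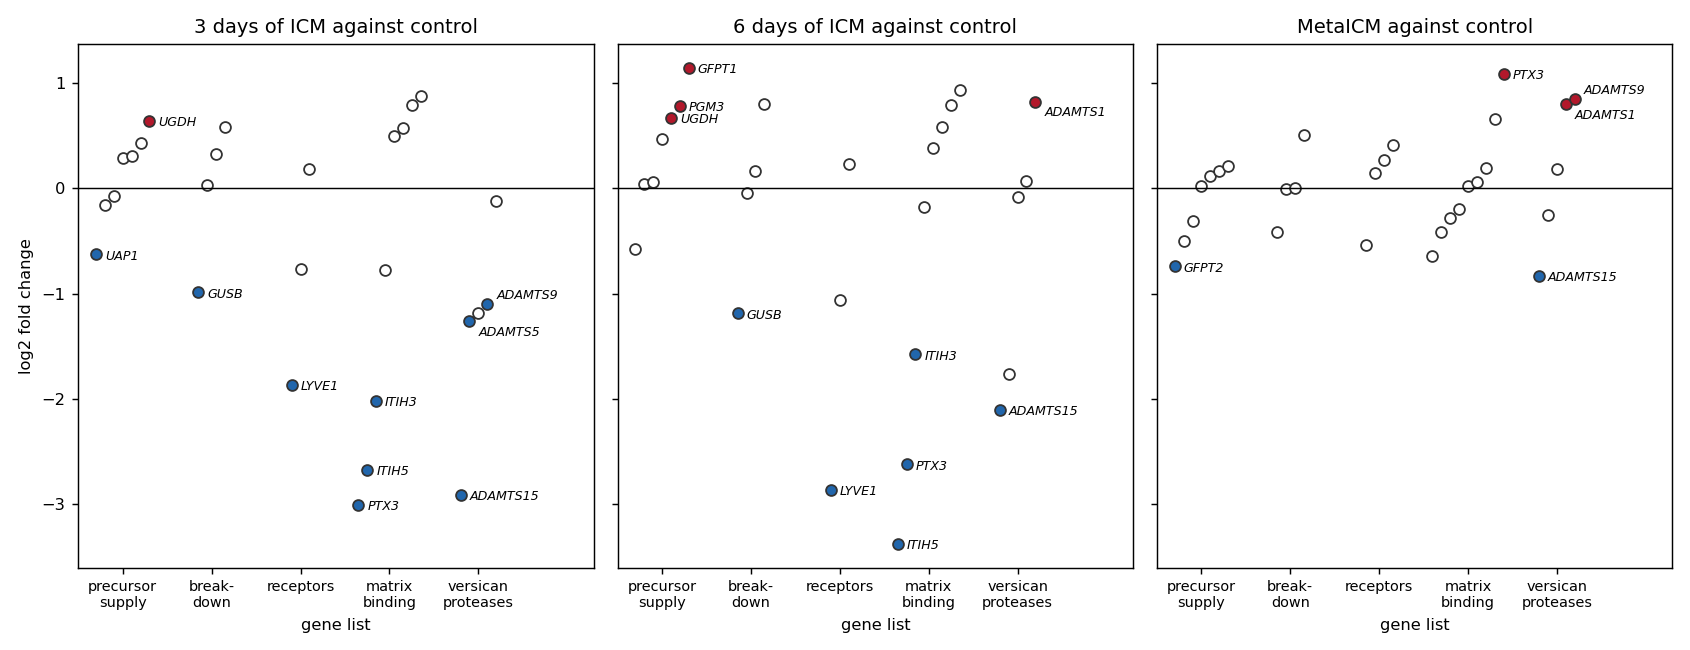
log2 fold change (vertical axis) of the tested genes of 5 lists (horizontal axis) in 3 comparisons with control. Filled, named points are called higher (red) or lower (blue), and open points are not called, with 1 breakdown gene not drawn. PTX3 lies at -3.01 and -2.62 under ICM and at 1.09 in MetaICM.

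Among the other breakdown enzymes, HYAL4 and SPAM1 were near 0 in all libraries. GUSB, the lysosomal beta-glucuronidase, fell at 3 days (log2FC -0.99 ± 0.16, adjusted p = 0.000784, edgeR) and 6 days (-1.19 ± 0.15, adjusted p = 0.000133, edgeR), and was 2.26-fold higher in MetaICM than at 6 days. HYAL3 was not called in any comparison, with values of 0.58 at 3 and 0.80 at 6 days.

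CD44, the chief hyaluronan receptor of fibroblasts, was not called in any of the 5 comparisons. It was at 1402 ± 182 CPM in control, 1603 ± 205 at 3 days, 1647 ± 85.4 at 6 days and 1869 ± 47.8 in MetaICM (SD, n = 2). Its log2FC was 0.19 (interval -0.14 to 0.51), 0.23 (-0.06 to 0.52) and 0.41 (0.10 to 0.72) at 3 days, at 6 days and in MetaICM against control. The other receptors were scarce. LYVE1, a receptor known from lymphatic vessels, had 29 read pairs in control, 10 at 3 days and 5 at 6 days, and was called lower at both times (log2FC -1.87 and -2.86), of which DESeq2 did not make the 3-day call (adjusted p = 0.156). In MetaICM against 6 days, LYVE1, STAB1 and STAB2 were higher by edgeR (STAB2 log2FC 1.33), beside 15.7% of all genes. DESeq2 called none of the 3 (adjusted p = 0.0797, 0.223 and 0.0980). In MetaICM against control, edgeR and DESeq2 called 0 of 4 receptors, where 7.41% of all genes were higher and 8.99% lower. Of these 4, 1 had an unadjusted p under 0.05 by edgeR.

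Among 14 further hyaluronan-binding matrix genes, 8 were tested at 3 and at 6 days and 3 fell at both times, namely PTX3, ITIH5 and ITIH3, beside 13.2% and 17.2% of all genes. DESeq2 did not call ITIH3 at either time (adjusted p = 0.0719 and 0.107) and gave ITIH5 no adjusted p at 3 days. PTX3, the pentraxin that stabilises cross-linked hyaluronan together with TSG-6, was at 109 ± 30.7 CPM in control, 13.6 ± 0.394 at 3 days, 17.8 ± 0.0201 at 6 days and 232 ± 0.0804 in MetaICM (SD, n = 2). Its log2FC was -3.01 ± 0.19 at 3 days (adjusted p = 2.69e-07), -2.62 ± 0.18 at 6 days (adjusted p = 2.00e-06) and 1.09 ± 0.16 in MetaICM (adjusted p = 0.00165, all edgeR). The sign of PTX3 was opposite to that of TNFAIP6 in all 3 comparisons with control, which share the control libraries. ITIH5, which encodes a heavy chain relative, rested on 26 read pairs in control, 5 at 3 days and 3 at 6 days (log2FC -2.67 and -3.38).

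Of 6 proteases that cut versican, 5 were tested at 3 days and 3 fell, beside 13.2% of all genes, namely ADAMTS15 (log2FC -2.91 ± 0.26, adjusted p = 4.99e-06, edgeR), ADAMTS5 (-1.26 ± 0.13, adjusted p = 1.98e-05, edgeR) and ADAMTS9. From 3 to 6 days all 4 that were tested rose, namely ADAMTS1, ADAMTS5, ADAMTS9 and ADAMTS15, at log2FC of 0.80 to 1.18, beside 3.53% of all genes, while VCAN fell. DESeq2 did not call ADAMTS15 in this step (adjusted p = 0.134). At 6 days ADAMTS1 stood above control (0.82) and ADAMTS15 below (-2.10), beside 13.3% of all genes higher and 17.2% lower, and ADAMTS5 was at -0.08. In MetaICM ADAMTS1 and ADAMTS9 were higher and ADAMTS15 was lower than control, beside 7.41% of all genes higher and 8.99% lower.

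Over the 8 libraries the courses of the members could also be set beside all 11167 genes with a mean of at least 5 CPM, by Pearson's r of log2(CPM + 1). Nearest to HAS2 were POLD3 (r = 0.995), HAUS6 and TOP3A, to CEMIP were TLN2 (0.988), PIGK and NALCN, and to VCAN were STARD9 (0.994) and LMCD1. Nearest to TNFAIP6 were GPATCH11 (0.997), RASSF8 and SEL1L3, and to HMMR were DLGAP5 (0.999), RRM2 and SYNE2. For HYAL2 the nearest gene was EFEMP2 (0.993), for HAS3 PCGF5 (0.981) and for HYAL1 TMEM50A (0.983). Among the 9 genes themselves, HAS2 and HMMR were the closest pair (r = 0.965). The 8 libraries fall into 4 conditions, so these r values mostly compare 4 levels and carry no test.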

How the data were processed

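Factory RNA was isolated from IMR90 and sequenced in 8 libraries, with 2 for each of control, ICM 3 days, ICM 6 days and MetaICM. The deposited values are raw counts per gene. Per the file headers and the submitters' notes, the authors aligned read pairs to GRCh37 (hg19) with STAR 2.6.0c and counted primary pairs over RefSeq exons with featureCounts 1.6.3, unstranded, leaving out pairs on several genes. The labels name poly(A) selection. The study's own nascent values rest on introns, not analysed here.

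Totals of 12095123 to 23166405 counts set the precision. Each comparison used its own 4 libraries in edgeR 4.0.16 (TMM scaling, filterByExpr with a count minimum of 10, quasi-likelihood test, Benjamini-Hochberg adjustment over all tested genes, called at adjusted p under 0.05 and absolute log2FC over 0.6). CPM divides by the library total over filtered genes, times a TMM factor from all 8 libraries. SD is over 2 libraries. The pipeline was tested on simulated data. DESeq2 1.42.0, other scalings and filters, a joint fit, a replicate block and leaving out each library were tried as alternatives. Libraries of a condition differed beyond sampling noise, so none was merged.

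The 9 members, the gene lists and the markers were chosen with earlier results of these data known. Named are all members, UGDH, GFPT2, CEMIP2, HYAL3, CD44, PTX3, HAPLN1, HAS2-AS1 and TPX2, the 2 called genes per list with the largest log2FC in any comparison, and the 3 genes nearest each member in course. UAP1, PGM3, ITIH3, STAB1, ADAMTS1, ADAMTS9, HYAL4, SPAM1 and CD3E were named after their values were seen. Promoters are from RefSeq (GRCh38.p14), matched by symbol. A few genes picked by the naming rule are not reported here.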

Additional observations from a re-analysis of the deposited data

Results flagged for a closer look

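Levels of 3 hyaluronan genes differed between 3 and 6 days of ICM, by a direct test of the 6-day against the 3-day libraries. With no control of each day, longer ICM and longer culture cannot be told apart here. CEMIP was higher at 6 days by 1.91 on the log2 scale, VCAN had a log2FC of -2.61 and TNFAIP6 of 0.60. TNFAIP6 stood only just past the 0.6 needed and lost its call when scaled to library totals. All 3 passed the quasi-likelihood test of edgeR (adjusted p = 1.68e-10, 3.50e-12 and 0.000713, 2 libraries against 2, without overlap). HAS2 and HMMR, which were lower than control at both times, did not pass this test (log2FC 0.54 and -0.07).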

How the results depend on the processing

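The number of called hyaluronan genes stayed within 1.5 times under every alternative, with HAS1 added as called at 3 days without the filter and at 3 and 6 days in the joint fit and without control replicate 2, and, without ICM 6-day replicate 2, as higher at 6 days than in control and in MetaICM. Of 326 single values of these genes under another scaling, filter, tool or fit, 321 kept direction and call, as did 149 of 164 with 1 library left out, where the lone library is assumed to vary like the other group. The called genes that lost their call, namely HAS3 and CEMIP at 6 days, TNFAIP6 from 3 to 6 days and HYAL2 in MetaICM, are given in the report, and at an adjusted p under 0.01 HAS3 and HYAL2 also lost it. Signs turned only for values that were not called. With 1 library left out, HYAL2 ran from -0.20 (without control replicate 2) to 0.30 at 3 days, with -0.18 without ICM 3-day replicate 1, and from -0.42 to 0.048 (without control replicate 1) at 6 days. From 3 to 6 days HAS1 ran from -1.16 to 0.24 (without ICM 6-day replicate 2), with 0.078 without ICM 3-day replicate 2, and HMMR from -0.25 to 0.11 (without ICM 3-day replicate 2). Over all genes, DESeq2 called 850 in place of 1278 from 3 to 6 days, and an adjusted p under 0.01 left 1532 of 2609 in MetaICM against control. Leaving out 1 library gave 2301 to 4068 calls at 3 days (3456 with all, lowest without ICM 3-day replicate 1) and 1049 to 4086 in MetaICM against control (lowest without MetaICM replicate 2, 1623 without MetaICM replicate 1, highest without control replicate 1). The causes were not tested. Scaling to library totals moved the split at 3 days from 1389 higher and 2067 lower to 1785 and 1767. Whether libraries of 1 number share a culture or batch is not known. Their deviations from the group means correlated at -0.021 to 0.157, which cannot settle this with 2 libraries per condition. With the replicate block 3915, 5116, 1450, 2823 and 4484 genes were called in the 5 comparisons (3456, 4859, 1278, 2609 and 4447 without it), and no call of a hyaluronan gene changed. Depth limits HAS1, LYVE1, ITIH5 and HAPLN1, which had few counts. DESeq2 called HAS1 neither at 3 nor at 6 days.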

Other observations

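HAPLN1, the link protein that clamps hyaluronan to proteoglycans such as versican and lies next to VCAN in the genome, had 0 counts in all 6 control and ICM libraries and 12 and 10 in MetaICM. Against a floor of 3 counts over a group, the summed 22 counts of MetaICM came to 4.90-fold over control. They came to 6.21-fold over 3 days and 6.35-fold over 6 days of ICM. These folds take the MetaICM count as it is, without counting error or the spread between libraries. The gene was too sparse to enter the test.

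The brain proteoglycan gene BCAN and the cartilage proteoglycan gene ACAN, relatives of VCAN named after their values were seen, were called by edgeR, not by DESeq2, in opposite directions between MetaICM and 6 days of ICM. BCAN was at 1.39 ± 0.162 CPM after 6 days and 0.456 ± 0.154 in MetaICM (log2FC -1.58 ± 0.40, adjusted p = 0.00219), and ACAN at 0.213 ± 0.225 and 0.657 ± 0.192 CPM (1.58 ± 0.61, adjusted p = 0.0341, both edgeR, SD over n = 2). By DESeq2 the adjusted p was 0.0590 for BCAN and 0.257 for ACAN, which rested on 1 and 7 counts at 6 days and 16 and 12 in MetaICM. VCAN itself was 3.87-fold higher in MetaICM in the same comparison.

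HAPLN3, another link protein and the most abundant of its family here, was at 35.0 ± 1.71 CPM after 3 days and 22.0 ± 1.31 after 6 days (log2FC -0.67 ± 0.11, adjusted p = 0.000314, edgeR). ITIH4, an inter-alpha-inhibitor relative, rose in the same comparison, with a log2FC of 1.15 ± 0.30 (adjusted p = 0.0104, edgeR), a call that DESeq2 did not make (0.0811). Both were named after their values were seen.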
